A study of Homo sapiens with 6 samples.

Results

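ATF4, the transcription factor at the centre of the integrated stress response, was followed with 9 genes that act with it or on it in CAL27 cells given lactate. The factors are ATF4, ATF5, ATF3 and DDIT3 (which encodes CHOP), the dimer partners are CEBPB and CEBPG, and the genes of the feedback and effector arm are TRIB3, CHAC1, NUPR1 and PPP1R15A. These 10 genes, of 31368 in the expression table, were chosen by symbol, with their differences between lactate and untreated libraries in this same table already known. Their differences between the groups are therefore given below as descriptions, with no p-value, and how many passed the threshold used for all genes is given only beside the share of all genes that did.

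CAL27 is a human line established from a tongue tumour of squamous type. The untreated group had 3 libraries from CAL27 cells with no agent added. The lactate group had 3 libraries from the same line given 10 mM lactate for 24 h, with the form of lactate not given in the sources used here. Both groups are of 1 cell line with no genetic change described, poly-A RNA was sequenced, and the study asked how lactate and the protein lactylation it feeds act on genes in this cancer.

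When unfolded protein, amino acid shortage, haem shortage or double-stranded RNA activates a kinase of the eIF2 alpha subunit, most translation slows while the mRNAs of ATF4, ATF5, DDIT3 and PPP1R15A are translated more, because upstream open reading frames govern their use. ATF4 is a basic leucine zipper (bZIP) protein and binds DNA as a dimer, often with a C/EBP protein such as CEBPB or CEBPG, at composite C/EBP-ATF elements in genes of amino acid supply. Its targets include its own restraints: PPP1R15A (GADD34) brings a phosphatase to eIF2 alpha, and TRIB3 is a pseudokinase that binds ATF4 and DDIT3. Since much of this control acts on translation and protein stability, the mRNA levels given here do not measure the activity of the pathway.

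The sequence elements of these factors were looked for in the members' own promoters, because several of the 10 genes are known targets of others among them. RefSeq promoter windows (build GRCh38.p14, 250 bases before to 50 after each start) were held for 9 of the 10 genes, with 1 to 3 windows a gene. The core of the C/EBP-ATF element was searched as TGATGNAA on both strands. It was in windows of 3 of the 9 genes, ATF3, CEBPG and CHAC1, against 4.46% of all 27305 genes with a RefSeq window. Those 27305 were not limited to genes of the expression table. The full element TGATGCAAT, which contains the core, was in 0 of the 9 and in 0.293% of all genes with a window. The cAMP response element TGACGTCA, bound by CREB and ATF dimers, was in 1 of 9, PPP1R15A, against 2.25% of genes. The AP-1 element TGANTCA, bound by JUN, FOS and ATF dimers, was in 2 of 9, ATF5 and DDIT3, against 9.37%. The endoplasmic reticulum stress element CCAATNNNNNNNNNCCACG was in 0 of 9 and in 0.0916% of genes. A match describes letters in a window and does not show binding.

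The upstream stretches with a match in the genes described most closely below are printed 5′ to 3′ on the gene's strand, from RefSeq, with the matched element in capitals, to show how near each lies to the start and in what surroundings.
CEBPG, chr19:33374026-33374112, plus strand, core at bases -42 to -35: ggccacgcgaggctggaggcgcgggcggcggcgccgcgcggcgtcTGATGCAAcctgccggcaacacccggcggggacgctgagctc
ATF3, chr1:212565171-212565268, plus strand, core at bases -191 to -184: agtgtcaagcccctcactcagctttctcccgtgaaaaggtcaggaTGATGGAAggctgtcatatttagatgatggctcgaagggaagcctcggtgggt
CHAC1, chr15:40953251-40953280, plus strand, core on the opposite strand at bases -209 to -202: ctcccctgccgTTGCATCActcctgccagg
PPP1R15A, chr19:48872318-48872391, plus strand, cAMP response element at bases -58 to -51: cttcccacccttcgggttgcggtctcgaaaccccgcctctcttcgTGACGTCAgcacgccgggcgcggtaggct
DDIT3, chr12:57520704-57520764, minus strand, AP-1 element at bases -241 to -235: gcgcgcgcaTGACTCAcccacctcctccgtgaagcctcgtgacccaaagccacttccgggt
ATF5, chr19:49928707-49928735, plus strand, AP-1 element at bases -188 to -182: ggagagtgctgTGACTCAtgctggactct
The CHAC1 and ATF5 stretches lie inside annotated GENCODE exons and were kept short for that reason. ATF4 itself, CEBPB and TRIB3 held none of the searched elements in their windows. Of the 3 genes with the C/EBP-ATF core, CHAC1 was among the 3 members with the most negative differences. ATF3 was at -0.07 on the log2 scale, and CEBPG was the only member with a positive difference. Whether the element bears on these differences was not tested.

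ATF4 mRNA was the most abundant of the 10 in both groups and was lower in every lactate library. The gene lies on chromosome 22 at 39519695 to 39522685, plus strand (GENCODE 29, GRCh38). Its level was 201.3, 198.8 and 200.6 FPKM (fragments scaled to gene length and a denominator per library, so levels are per length) in untreated libraries 1 to 3, and 130.5, 134.9 and 134.9 FPKM in lactate libraries 1 to 3. All 3 lactate libraries lay below all 3 untreated ones, and the groups were far apart against their spread. The group mean went from 200.3 ± 1.31 (SD, n = 3) to 133.4 ± 2.54 FPKM, a change of -33.4%. On the log2(FPKM + 1) scale the difference was -0.58 with a standard error (SE) of 0.019 from limma, which was the 67th lowest of 11792 genes compared. These values rest on 10557 to 17456 reads a library. The processed pseudogene ATF4P3, a retrocopy that can share reads with ATF4, was at 11.4, 13.3 and 12.3 FPKM in untreated and 8.96, 7.92 and 8.26 FPKM in lactate libraries, so any reads split between the copies moved in the same direction. In a bulk library, a lower level in every cell and fewer cells with a high level cannot be told apart.

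ATF5, the close relative of ATF4 that is linked to mitochondrial protein stress, had the lowest log2 difference of the 10. It lies on chromosome 19 at 49928702 to 49933935, plus strand. Its level was 6.39, 6.43 and 6.62 FPKM in untreated and 3.99, 3.79 and 3.98 FPKM in lactate libraries. The groups did not overlap, and ATF5 stood far below ATF4 in each library. The mean went from 6.48 ± 0.119 to 3.92 ± 0.115 FPKM (SD, n = 3 each), a change of -39.5%, and the log2 difference was -0.61 (SE 0.033). Exons of NUP62, a nuclear pore gene on the opposite strand, cover 626 bases or 21.2% of the ATF5 exons. NUP62 averaged 15.7 FPKM with a log2 difference of -0.36, and because strand use in counting is not given in the sources used here, reads in the shared stretch cannot be assigned to either gene.

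DDIT3 encodes CHOP, a C/EBP-related factor that is linked to cell death under long stress. The gene lies on chromosome 12 at 57516588 to 57521737, minus strand. It was at 41.6, 45.4 and 44.3 FPKM in untreated and 34.7, 32.9 and 32.5 FPKM in lactate libraries. The groups did not overlap. Mean DDIT3 went from 43.8 ± 1.95 to 33.4 ± 1.16 FPKM (SD, n = 3 each), a change of -23.8% and of -0.38 (SE 0.038) on the log2 scale. MARS1, a tRNA synthetase gene on the opposite strand, shares 355 bases or 27.2% of the DDIT3 exons; it averaged 52.0 FPKM and had a log2 difference of -0.29. Shared reads could not be separated here either.

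ATF3, the stress factor that responds to ATF4 and to many other inputs, moved little. It lies on chromosome 1 at 212565334 to 212620777, plus strand. Its level was 37.6, 36.6 and 38.5 FPKM in untreated and 34.7, 36.4 and 36.1 FPKM in lactate libraries. The lowest untreated library stood just above the highest lactate library, so the groups touched without overlapping. Mean ATF3 went from 37.6 ± 0.935 to 35.7 ± 0.932 FPKM (SD, n = 3 each), a change of -4.92%, and the log2 difference was -0.07 (SE 0.028). Its sign depended on the scaling between libraries: it was 0.02 after quantile normalization and under 0.001 in size after scaling to read totals.

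The C/EBP partners of ATF4 did not move together. CEBPB, on chromosome 20 at 50190734 to 50192689, plus strand, was at 68.4, 72.8 and 73.8 FPKM in untreated and 57.0, 61.7 and 57.1 FPKM in lactate libraries. All 3 lactate values were below the untreated ones, with lactate library 2 the highest of its group. Mean CEBPB went from 71.7 ± 2.86 to 58.6 ± 2.70 FPKM (SD, n = 3 each), a change of -18.2% and of -0.29 (SE 0.040) on the log2 scale. Its antisense gene CEBPB-AS1 overlaps 231 bases of it and averaged 0.256 FPKM. CEBPG, the short C/EBP protein that lacks a strong activation domain and pairs with ATF4, lies on chromosome 19 at 33373330 to 33382686, plus strand. It was at 19.7, 19.0 and 20.4 FPKM in untreated and 19.9, 20.6 and 20.3 FPKM in lactate libraries, and it was the only one of the 10 whose groups overlapped. Its mean was 19.7 ± 0.698 in untreated and 20.2 ± 0.332 FPKM in lactate libraries (SD, n = 3 each), with a log2 difference of 0.04 (SE 0.031). That difference became 0.11 after scaling to read totals. It was -0.02 after correction for a trend on GC content and summed exon length in each library.

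Of the genes of the feedback and effector arm, CHAC1 had the largest difference. CHAC1 encodes an enzyme that breaks down glutathione and lies on chromosome 15 at 40952962 to 40956519, plus strand. It was at 27.9, 28.99 and 27.9 FPKM in untreated and 17.5, 19.1 and 19.3 FPKM in lactate libraries. The groups were apart by more than their ranges, and the mean change of -34.1% was close to that of ATF4. The log2 difference was -0.58 (SE 0.039).

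TRIB3, the pseudokinase that restrains ATF4 and CHOP, lies on chromosome 20 at 362835 to 397559, plus strand. It was at 53.8, 56.4 and 55.3 FPKM in untreated and 39.2, 42.0 and 41.2 FPKM in lactate libraries. The groups did not overlap. The mean went from 55.2 ± 1.32 to 40.8 ± 1.40 FPKM (SD, n = 3 each), a change of -26.1% and of -0.43 (SE 0.031) on the log2 scale.

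PPP1R15A, the stress-inducible partner of the eIF2 alpha phosphatase, lies on chromosome 19 at 48872392 to 48876057, plus strand. It was at 75.5, 78.0 and 72.7 FPKM in untreated and 54.8, 58.6 and 56.6 FPKM in lactate libraries. These groups did not overlap either. The mean went from 75.4 ± 2.66 to 56.6 ± 1.90 FPKM (SD, n = 3 each), a change of -24.9% and of -0.41 (SE 0.034) on the log2 scale.

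NUPR1, a small stress protein of chromatin that ATF4 is known to induce, was close to the limit of detection. It lies on chromosome 16 at 28532708 to 28539174, minus strand. It was at 0.353, 0.346 and 0.294 FPKM in untreated and 0.287, 0.204 and 0.221 FPKM in lactate libraries, from 37 to 55 reads each. The groups did not overlap, but by a narrow margin at this depth. NUPR1 was under the minimum of 1 FPKM in 3 libraries and did not enter the comparison across genes.

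**Figure D1:**
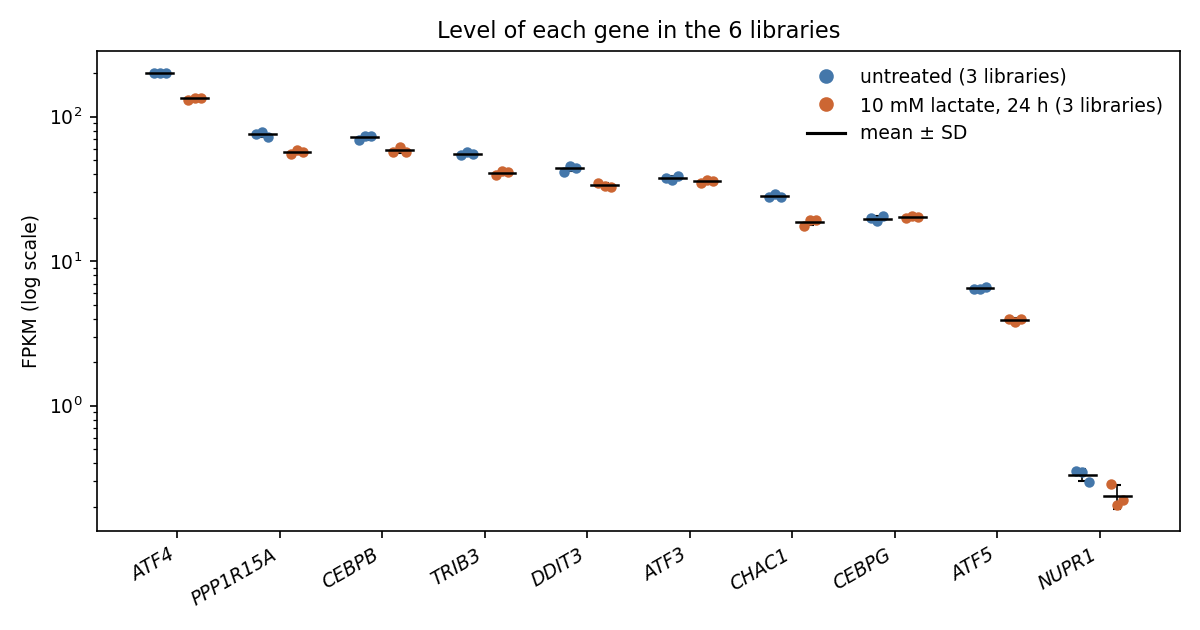
Level of each of the 10 genes in FPKM (log axis) in the 3 untreated and 3 lactate libraries; points are libraries, and the bars are the mean ± SD. ATF4 lies near 200 FPKM untreated and 133 FPKM with lactate, CEBPG stays near 20 FPKM in both, and NUPR1 is under 1 FPKM throughout.

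Of the 10 genes, 9 entered the comparison across 11792 genes and NUPR1 did not. Of these 9, 7 were on the lower side of the threshold set for all genes (limma, Benjamini-Hochberg adjusted p under 0.05), 0 on the higher side and 2, ATF3 and CEBPG, on neither. Over all genes tested, 58.6% passed in either direction, 30.9% as lower and 27.7% as higher, and since the genes were chosen with this comparison known nothing is read from their count. The groups did not overlap for 8 of the 9, beside 65.5% of all genes. The median log2 difference of the 9 was -0.41, and it was -0.39 with NUPR1 added from a fit without the filter. The median over all genes tested was -0.02.

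The size of the differences depended on the processing. Those of the 7 genes lay below zero under each of the 17 alternatives tried, and were smaller under some of them. ATF4 had a log2 difference of -0.40 after quantile normalization, -0.51 after scaling to read totals and -0.44 after GC and length correction. Of the 7, CEBPB showed the greatest relative loss, to -0.14 after quantile normalization and -0.17 after GC and length correction. ATF3 changed sign only after quantile normalization, and CEBPG only after GC and length correction. Their calls also depended on the setting. ATF3 passed as lower under median centring, at least 5 FPKM, protein-coding genes only, voom and without untreated replicate 2. CEBPG passed as higher after quantile normalization and after scaling to read totals. Nothing is read from these calls either.

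**Figure D2:**
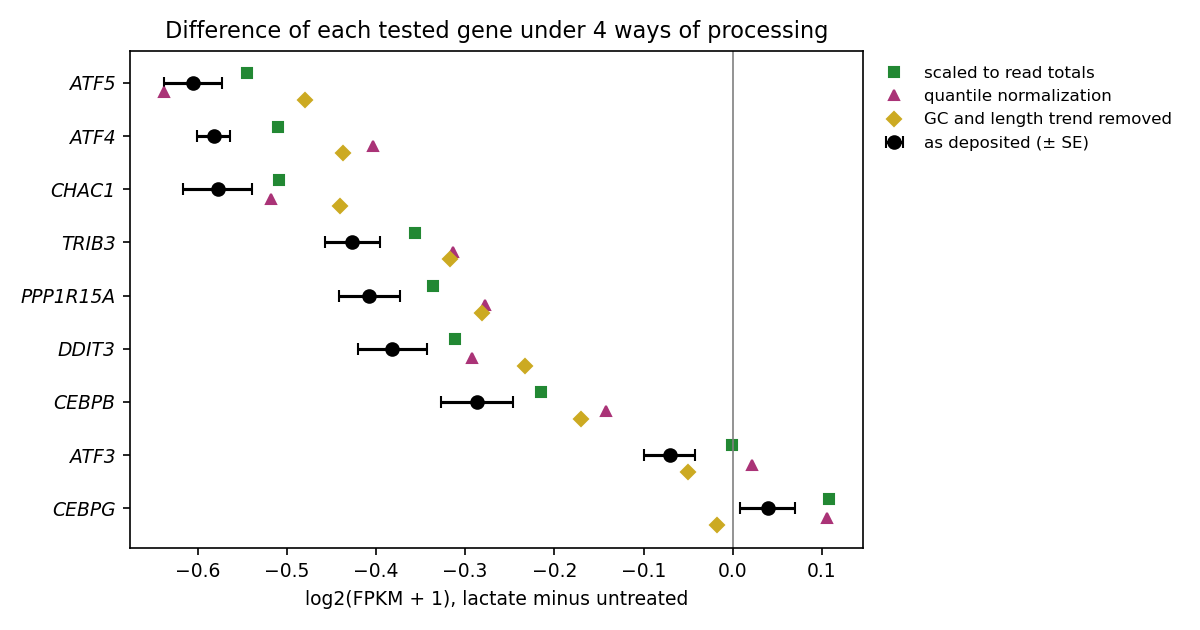
Difference in log2(FPKM + 1), lactate minus untreated, for the 9 tested genes: black circles are the values as deposited with the SE, and the other symbols are 3 other ways of processing. The 7 genes from ATF5 to CEBPB stay left of zero in all 4, while ATF3 and CEBPG lie on either side of it.

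Differences between the groups moved with GC content across the transcriptome, and most of the 10 genes are GC-rich. Over 9881 protein-coding genes with a GC value, split into 5 classes of near-equal size by the GC content of the longest transcript, the median log2 difference was 0.16 in the lowest class, 0.11 in the next, -0.05 in the middle, -0.12 in the fourth and -0.09 in the highest. The median GC content of the 9 tested genes was 58.8%, against 48.1% for all genes tested. The median gene length behind their FPKM values was 2892 against 4530 bases, which is not the length of a single transcript. ATF5, CEBPB, TRIB3, CHAC1 and PPP1R15A were in the highest class, ATF4 in the fourth, ATF3 and DDIT3 in the middle and CEBPG in the second. Once GC and length trends had been taken out of every library, the median of the 9 was -0.28, and the difference was -0.48 for ATF5, -0.44 for CHAC1, -0.32 for TRIB3, -0.28 for PPP1R15A, -0.23 for DDIT3 and -0.17 for CEBPB.

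**Figure D3:**
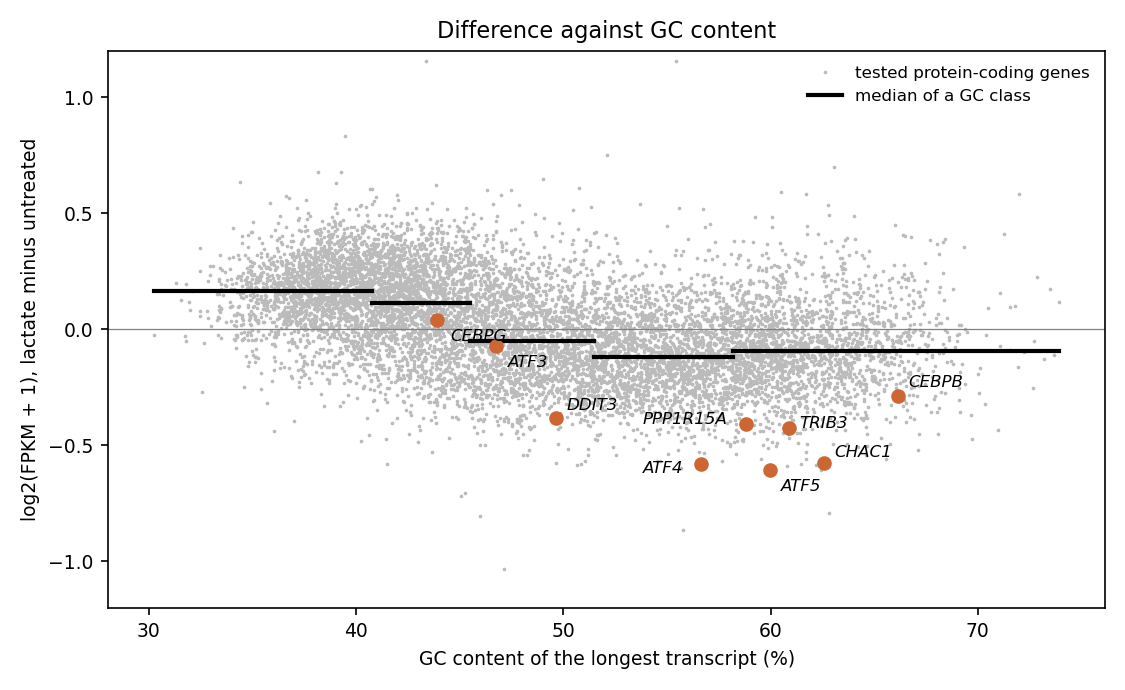
Log2 difference, lactate minus untreated, against the GC content of the longest transcript, for 9881 tested protein-coding genes (grey points), with black lines at the median of each GC class and the 9 tested genes as orange points. The medians go from 0.16 in the lowest class to -0.12 in the fourth, and ATF4, ATF5 and CHAC1 lie near -0.6, below the median lines.

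Untreated CAL27 cells held these mRNAs over a wide range of levels, a pattern that does not use the comparison with lactate. ATF4 came first, 2.66 times above the next gene, PPP1R15A, and PPP1R15A and CEBPB overlapped in their 3 values. Below them came TRIB3, DDIT3, ATF3, CHAC1, CEBPG, ATF5 and NUPR1, with no overlap between neighbours. Neighbours were measured in the same 3 libraries, so their values are paired by library, and the order is given without a test. With lactate CEBPB came before PPP1R15A, again with overlapping values, ATF3 and DDIT3 overlapped in reverse order, and CEBPG stood above CHAC1 without overlap.

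Each gene was also set against ATF4 in the same library, which removes any common scale factor. ATF4 itself had the 67th lowest log2 difference of 11792 genes compared, so most genes would gain against it. The gains below therefore restate the differences given above, and the share of all genes that gain against ATF4 was not computed. CEBPG went from 9.83% ± 0.305 of the ATF4 level in untreated to 15.2% ± 0.104 in lactate libraries (SD, n = 3 each), and ATF3 from 18.8% ± 0.392 to 26.8% ± 0.214. These were the 2 largest relative gains, and their groups did not overlap. CEBPB went from 35.8% ± 1.57 to 43.9% ± 1.74, PPP1R15A from 37.7% ± 1.51 to 42.4% ± 0.849, TRIB3 from 27.6% ± 0.832 to 30.6% ± 0.516 and DDIT3 from 21.9% ± 1.098 to 25.01% ± 1.36. These 4 also gained against ATF4 without overlap, because ATF4 itself was lower by more. CHAC1, at 14.1% ± 0.399 and 14.0% ± 0.466, kept its proportion within the spread of the libraries. ATF5 alone lost against ATF4 without overlap, from 3.24% ± 0.0609 to 2.94% ± 0.125. NUPR1 stood at 0.165% and 0.178%, with overlapping groups.

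**Figure D4:**
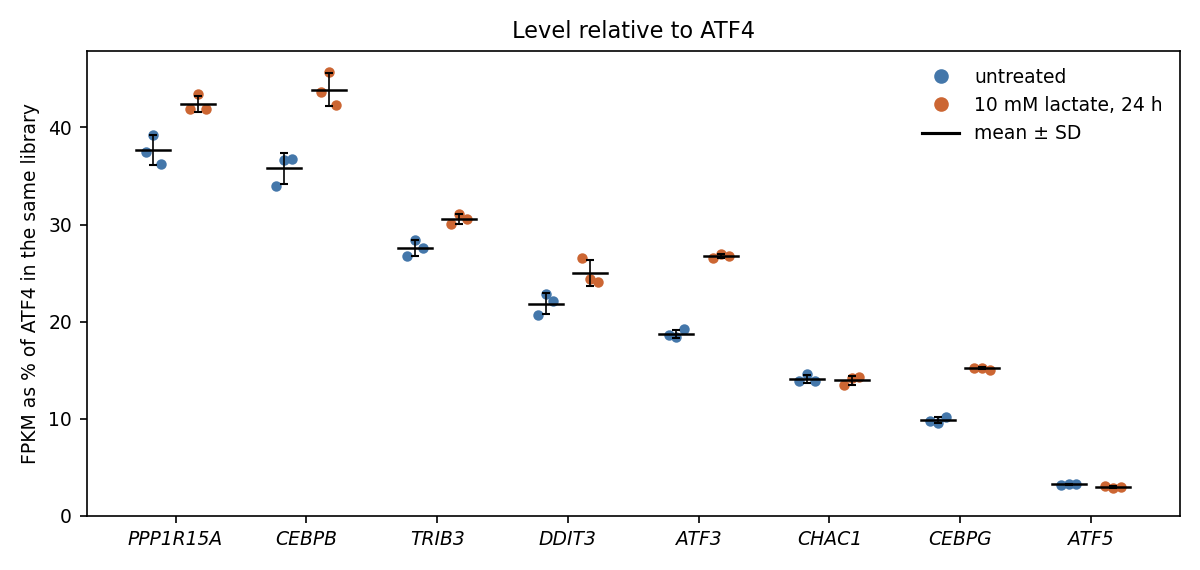
FPKM of 8 genes as a percentage of ATF4 in the same library, for 3 untreated and 3 lactate libraries (points), with mean ± SD (black). CEBPG and ATF3 show the largest relative gains, CHAC1 stays near 14%, and ATF5 goes from 3.24% to 2.94%; NUPR1, under 1%, is not drawn.

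The genes around the 10 were taken from lists written from general knowledge, also with earlier results of these data known, and each was tested in the same fit. The shares of all genes given next stand beside the counts of every list below. Among enzymes and effectors known as ATF4 targets, 17 of 22 tested genes were lower and 3 higher, beside the 30.9% and 27.7% of all genes; the list's median log2 difference was -0.25, and -0.14 after quantile normalization or GC and length correction. SESN2, a stress-induced inhibitor of mTORC1, fell from 24.4 ± 0.943 to 16.2 ± 0.144 FPKM (log2 difference -0.56, SE 0.031, limma adjusted p = 1.82e-05). PSPH and PSAT1, both enzymes of serine synthesis, fell by 0.49 (adjusted p = 9.81e-06) and by 0.31 (adjusted p = 1.70e-05) on the log2 scale. SQSTM1, the autophagy receptor p62, fell from 137.7, 143.8 and 142.3 FPKM to 96.98, 103.2 and 99.98 FPKM (log2 difference -0.49, adjusted p = 1.80e-05). DDIT4, another mTORC1 inhibitor, fell from 215 ± 0.978 to 178 ± 3.24 FPKM (log2 difference -0.27, adjusted p = 3.17e-05).

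Other known targets were near the limit of detection, passed under some settings only, or were higher. ASNS, asparagine synthetase and a textbook ATF4 target, was at 0.576 ± 0.0169 FPKM in untreated and 0.574 ± 0.117 FPKM in lactate libraries, from 69 to 114 reads, and was under the filter. GDF15, a secreted stress factor, went from 22.7 ± 1.59 to 20.2 ± 0.822 FPKM (log2 difference -0.16, limma adjusted p = 0.0311). This call was lost under quantile normalization (adjusted p = 0.160), scaling to read totals (0.196), GC and length correction (0.629) and without the filter (0.115). It was also lost without untreated replicate 1 or 2 or lactate replicate 1 or 3 (adjusted p = 0.0545, 0.0609, 0.0965 and 0.0658). ALDH1L2, a mitochondrial folate enzyme, NIBAN1, and XPOT, the tRNA exporter, rose by 0.19, 0.15 and 0.11 (adjusted p = 0.0186, 0.00787 and 0.004). The call of ALDH1L2 was lost without untreated replicate 2 or lactate replicate 2 or 3 (adjusted p = 0.0514, 0.0587 and 0.0558) and without the filter (adjusted p = 0.0581). All 3 calls were lost once GC and length trends were taken out, and the difference of XPOT was then -0.05 (adjusted p = 0.0822).

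Amino acid transporters known as ATF4 targets were lower for 7 of 10 tested genes and higher for 1, with a median of -0.21. SLC1A5, the glutamine carrier, fell from 136 ± 1.08 to 99.4 ± 1.09 FPKM (log2 difference -0.45, limma adjusted p = 9.46e-06). SLC3A2, the heavy chain of the leucine and cystine exchangers, fell from 199 ± 2.05 to 153 ± 3.79 FPKM (log2 difference -0.38, adjusted p = 1.82e-05). Its light chain SLC7A5 fell by 0.23 (adjusted p = 5.57e-05), but was at 0.01 after quantile normalization. The 1 higher gene, SLC38A2, was at 0.08 (adjusted p = 0.0292) and turned to -0.09 (adjusted p = 0.00280) after GC and length correction. Its call was also lost under median centring (adjusted p = 0.0917), without a variance trend or a filter, and without untreated replicate 2 or 3 or lactate replicate 1 or 3 (adjusted p = 0.082, 0.0556, 0.0879 and 0.0796).

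The cytosolic tRNA synthetases were divided, with 7 of 12 lower and 5 higher. YARS1, SARS1 and AARS1 fell by 0.30, 0.29 and 0.28 on the log2 scale (limma adjusted p = 3.42e-05, 3.65e-05 and 3.17e-05). LARS1, EPRS1 and IARS1 rose by 0.38, 0.37 and 0.29 (adjusted p = 5.27e-05, 3.17e-05 and 9.84e-05). The 3 that rose have a GC content of 41.5% to 43.6% and the 3 that fell of 51.5% to 55.7%, and each kept its sign after GC and length correction. The C/EBP-ATF core was in a promoter window of 7 of the 10 synthetases with a window and of 5 of 10 transporters. It was in 3 of 20 enzymes and effectors and in the 4.46% of all genes with a window given above. It was found both in a synthetase that fell, AARS1, and in one that rose, IARS1.

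Upstream of ATF4, 3 of the 4 kinases that phosphorylate eIF2 alpha rose. The fourth, EIF2AK3, was under the filter of 1 FPKM in the untreated libraries and is not counted with them. EIF2AK2 (PKR, the sensor of double-stranded RNA) went from 6.43 ± 0.0771 to 8.49 ± 0.324 FPKM (log2 difference 0.35, SE 0.034, limma adjusted p = 0.000129). EIF2AK1 (HRI, the haem-regulated kinase) went from 29.96 ± 0.475 to 35.0 ± 0.910 FPKM (log2 difference 0.22, adjusted p = 0.000363). EIF2AK4 (GCN2, the sensor of uncharged tRNA) went from 5.22 ± 0.267 to 6.33 ± 0.230 FPKM (log2 difference 0.24, adjusted p = 0.00231). EIF2AK3 (PERK, the sensor in the endoplasmic reticulum) went from 0.810 ± 0.0797 to 1.17 ± 0.0453 FPKM, from 376 to 985 reads a library. It passed the filter only through its lactate libraries, so its test is not counted here. EIF2AK1, EIF2AK2 and EIF2AK4 kept their direction and the call under quantile normalization, scaling to read totals and GC and length correction, where the smallest difference was 0.15 (EIF2AK2, adjusted p = 0.00468).

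The other upstream genes were mixed. PPP1R15B, the constitutive counterpart of PPP1R15A, was at 8.49 ± 0.179 FPKM in untreated and 9.02 ± 0.238 FPKM in lactate libraries and passed in neither direction (limma adjusted p = 0.0626). It passed as higher after scaling to read totals (adjusted p = 0.00667) and without lactate replicate 1 (adjusted p = 0.0498), and its log2 difference was -0.006 after GC and length correction. The phosphatase subunit PPP1CA fell by 0.26 (adjusted p = 7.70e-05), EIF2B5 of the eIF2B exchange factor by 0.22 (adjusted p = 0.000799) and DELE1, which links mitochondrial stress to HRI, by 0.27 (adjusted p = 0.000505). DNAJC3, the p58 inhibitor of PKR and PERK, rose by 0.24 (adjusted p = 0.000243). Over the list of 22, 11 were higher, EIF2AK3 included, and 6 lower, and 7 and 7 after GC and length correction.

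Other factors of the bZIP class had no common direction, with 13 of 33 tested genes lower, 11 higher and a median of -0.02. XBP1, the factor of the IRE1 branch of the unfolded protein response, fell from 80.4 ± 0.147 to 57.6 ± 1.98 FPKM (log2 difference -0.47, limma adjusted p = 1.80e-05). JUND and CREB3 fell by 0.37 and 0.35 (adjusted p = 4.92e-05 and 7.98e-05). CREB1, CREB3L2 and NFE2L2, the last being the NRF2 factor of the antioxidant response, rose by 0.32, 0.31 and 0.29 (adjusted p = 0.000310, 0.000246 and 0.000278). Of the other C/EBP genes, CEBPA at 0.610 ± 0.180 and 0.639 ± 0.112 FPKM was under the filter. CEBPD was at 15.1 ± 0.310 and 13.2 ± 1.64 FPKM (adjusted p = 0.0830). CEBPD passed as lower without lactate replicate 2 (adjusted p = 0.0159), among protein-coding genes only (0.0290) and under voom (0.0143). The list also held CEBPZ, which carries the C/EBP name without being a bZIP protein.

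Targets of ATF6 and XBP1, which serve the endoplasmic reticulum beside the ATF4 branch, were lower for 13 of 24 tested genes and higher for 5. Of all genes, 30.9% were lower and 27.7% higher. The list's median log2 difference was -0.16. It was -0.07 after quantile normalization and -0.17 after GC and length correction. CALR and PDIA4 fell by 0.35 and 0.29 (limma adjusted p = 2.64e-05 and 1.99e-05), and SELENOS by 0.39 (adjusted p = 3.17e-05). HSPA5 (BiP), the main chaperone of that compartment, went from 353 ± 5.53 to 372 ± 5.31 FPKM (log2 difference 0.08, adjusted p = 0.00872). HSP90B1 and SEC24D rose by 0.29 and 0.35 (adjusted p = 0.000144 and 0.000374).

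Among genes linked to CHOP, 7 of 9 tested were lower and 1 higher, beside 30.9% and 27.7% of all genes. Of the 11 on the list, 4 were shared with the lists above. The median log2 difference of the tested genes was -0.27. It was -0.10 after quantile normalization and -0.25 after GC and length correction. STC2 fell from 37.0 ± 0.744 to 28.2 ± 0.330 FPKM (limma adjusted p = 2.56e-05), while ERO1A, the oxidase of disulfide bond formation, rose from 27.1 ± 0.956 to 36.0 ± 1.34 FPKM (log2 difference 0.39, adjusted p = 0.000106). Among mitochondrial chaperones and proteases linked to ATF5, 7 of 12 were lower and 3 higher, and after scaling to read totals 4 were lower and 4 higher. HSPE1 fell by 0.32 (adjusted p = 0.000114), DNAJA3 by 0.22 (adjusted p = 0.000245) and TRAP1 by 0.18 (adjusted p = 0.00116). HSPD1, the partner of HSPE1, rose by 0.18 (adjusted p = 0.000572), as did CLPX by 0.36 and YME1L1 by 0.33 (adjusted p = 7.28e-05 and 0.000171).

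**Figure D5:**
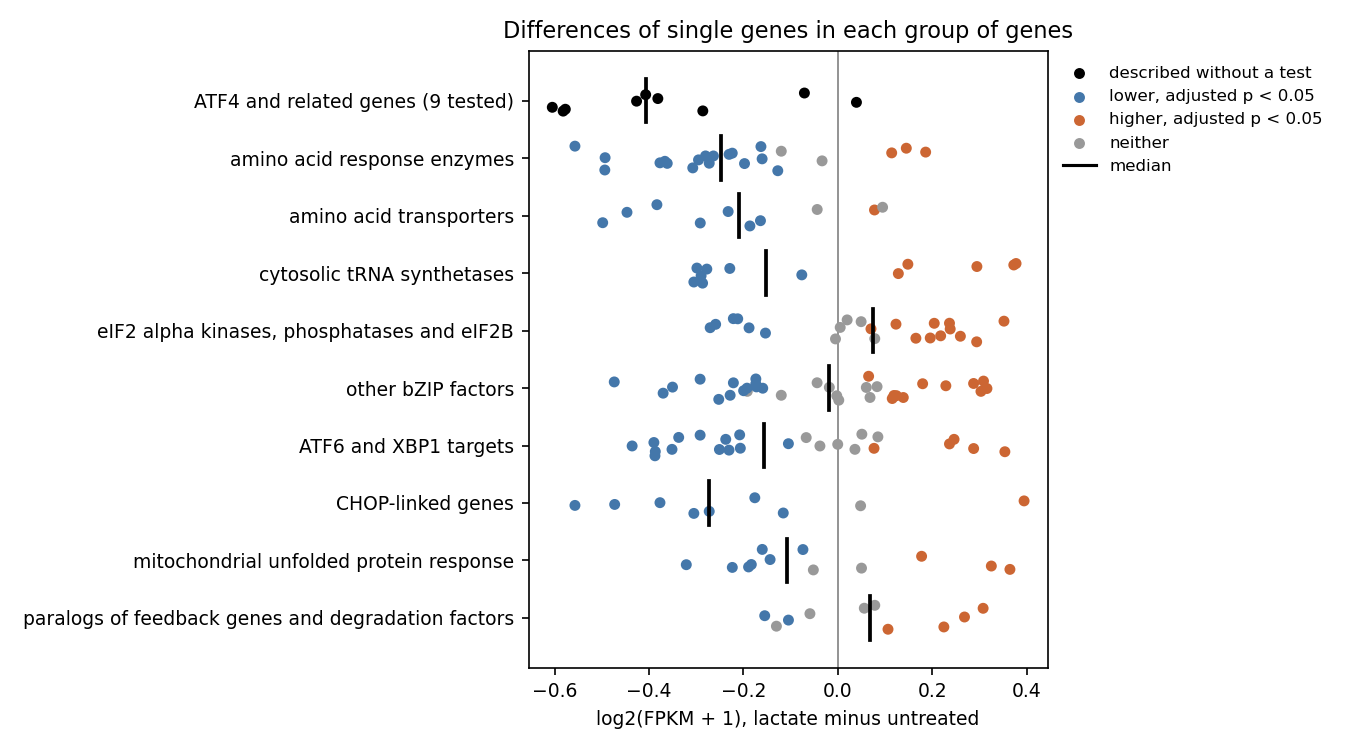
Log2 difference, lactate minus untreated, of each tested gene in 9 lists (rows), coloured by limma's call, with ATF4 and the related genes in black above them and black lines at the medians. Known ATF4 target enzymes and transporters lie mostly left of zero, with medians of -0.25 (-0.14 after quantile normalization) and -0.21. The eIF2 alpha list lies mostly right of it, with a median of 0.07 that became -0.006 after GC and length correction.

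Paralogs of the feedback genes and the ligases that act on ATF4 or C/EBP proteins were mixed. BTRC and FBXW11, the F-box proteins that mark ATF4 for degradation, rose by 0.22 and 0.27 (limma adjusted p = 0.00410 and 0.000215), and EGLN3, a prolyl hydroxylase that binds ATF4, rose by 0.31 (adjusted p = 0.000331). TRIB1 went from 3.53 ± 0.0897 to 3.22 ± 0.136 FPKM (adjusted p = 0.0480). Its call was lost on leaving out any 1 library other than lactate replicate 1 (adjusted p = 0.0597 to 0.144). It was also lost after scaling to read totals (adjusted p = 0.286), after GC and length correction (0.931), under voom (0.0840) and without the filter (0.118). TRIB2 was at 2.29 ± 0.188 and 2.16 ± 0.300 FPKM with overlapping groups (adjusted p = 0.536). GGCT, which like CHAC1 is a gamma-glutamyl cyclotransferase, fell by 0.16 (adjusted p = 0.000946), with the call lost after quantile normalization (adjusted p = 0.420). Over the list of 10 tested genes, 4 were higher and 2 lower.

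The genes whose 6 values ran closest to those of ATF4 were found by the root mean square difference in log2(FPKM + 1) after the untreated mean was subtracted, among genes averaging at least 10 FPKM. NOB1, a ribosome assembly factor, came first at 0.013, with 89.3, 88.7 and 88.7 FPKM in untreated and 58.9, 59.8 and 60.0 FPKM in lactate libraries. NOP56, another ribosome assembly gene, followed at 0.021, then AGR2 at 0.029 and RCC1 at 0.030. The nearest gene was also NOP56 for ATF5, CDK4 for TRIB3, SLC43A3 for CHAC1, ITPA for PPP1R15A, MUL1 for CEBPB, RPS26 for DDIT3, SQOR for ATF3 and PGM1 for CEBPG. For NUPR1 it was the pseudogene RPL17P6, but at under 1 FPKM the added 1 compresses every difference. The 6 libraries fall into 2 groups, so this measure mostly finds genes with a difference of the same size.

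The libraries were close replicates. Recovered reads came to 25690461 to 39142793 a library, and log2 values correlated across genes at r = 0.996 to 0.997 within groups and 0.989 to 0.991 between them. The squamous markers KRT5, KRT14, KRT6A, KRT17, TP63, EPCAM, CDH1 and SFN were all present, summing to 1046 to 1063 FPKM in untreated and 1054 to 1075 FPKM in lactate libraries; 2 of the 8 were lower (KRT5 and, except after GC and length correction, KRT6A) and 5 higher. Fibroblast markers summed to 1.04 to 1.19 FPKM in untreated and 1.59 to 1.79 FPKM in lactate libraries, with all 5 measured genes under 1 FPKM. Leukocyte markers (5 of 6 measured) summed to 0.769 to 0.930 and 0.411 to 0.632 FPKM, and endothelial markers (4 of 5 measured) to 1.15 to 1.41 and 1.04 to 1.14 FPKM; no measured marker was at 0 in all 6 libraries, and the part of other cell types in the results was not tested. Nothing in the labels says whether the 3 libraries of a group came from separate cultures, so p-values measure the spread between these libraries, which may be technical.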

How the data were processed

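Poly-A RNA of 6 CAL27 libraries was measured. The deposited table gives FPKM for 31368 genes. Per the submitters' processing notes the authors' tools were featureCounts 1.5.0-p3, StringTie 1.3.3b, HISAT2 2.0.5 and fastp, on build hg38; tool roles, annotation and strand use were not given in the sources used here. Whole reads were recovered from the FPKM steps for 31366 genes, within 0.003 reads. They summed to 102.1% to 103.3% of the denominators behind the FPKM in untreated and 97.07% to 98.2% in lactate libraries. The deposited values may thus carry a scaling across libraries that no label mentions, and differences would then be relative to it.

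The test was limma 3.58.1 (R 4.3.3), trended and robust, on log2(FPKM + 1), for the 11792 genes that reached 1 FPKM in 3 or more libraries, Benjamini-Hochberg adjusted, threshold 0.05. Fold changes of low genes are understated on this scale. Coordinates, GC content and overlaps came from GENCODE 29. Python 3.11.15 did the rest, and the test was tried on simulated data.

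The 10 genes and all lists were chosen with earlier results of these data known. Named list genes are up to 3 with the smallest p per direction, plus 14 fixed names, the genes nearest in pattern and those overlapping a member. A gene that this rule names is not reported here. 8 list genes (SLC7A3, CEBPE, BATF, CREB3L3, NUPR2, DCN, PTPRC and KDR) and chromatin data were not analysed here. Alternatives were other scalings, filters, a pseudocount of 0.1, protein-coding genes only, no variance trend, voom, GC and length trend removal (4 degrees of freedom), a replicate block and each library left out.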

Additional observations from a re-analysis of the deposited data

How the results depend on the processing

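The number of genes passing, 6914, was between 4741 (at least 5 FPKM) and 7394 (voom on recovered reads) over 17 alternatives, and between 6027 and 6473 with 1 library left out. Scaling to read totals moved the split from 3265 higher and 3649 lower to 4193 higher and 2539 lower. The median of the 9 tested genes, -0.41, became -0.29 under quantile normalization, -0.34 under read totals and -0.28 with the GC and length correction, and lay between -0.43 and -0.38 with 1 library left out. Among mitochondrial chaperones and proteases the number lower, 7, became 4 under read totals. Among paralogs and degradation factors it went from 2 to 1 under quantile normalization, read totals, no filter, at least 5 FPKM, voom and GC and length trend removal, and was 1 to 2 with 1 library left out; the gene lost was TRIB1 except under quantile normalization, where it was GGCT, and under the 5 FPKM filter TRIB1 was not tested. The cause of these changes was not tested.

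The replicate numbers were not taken as pairs. Deviations of same-numbered libraries correlated at 0.05, 0.07 and -0.004. Untreated 1 correlated best with lactate 1 and untreated 2 with lactate 2, while untreated 3 correlated best with lactate 1 (0.02). These small values do not settle whether the libraries were paired. With the replicate block 7039 genes passed.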
